A study of Homo sapiens with 18 samples.

Results

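The genes described here repair damaged DNA bases, single-strand breaks, double-strand breaks by end joining and replication mismatches. They are 32 genes listed by name, of which 18 belong to base excision and single-strand break repair, 11 to end joining and 3 to mismatch repair. The deposited tables have 22027 rows in either of them. Of the 32 genes, 31 were found by symbol in each table, and APLF was found by its identifier, ENSG00000169621, which both tables label PROKR1. The filter on low values, a mean of at least 1 over all libraries, left 30 of the 32 for testing in both tables. NHEJ1 and APLF did not, and their levels are given below.

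RNA was sequenced from LNCaP, a human prostate cancer line that depends on the androgen receptor, and 18 libraries make 9 groups of 2. One experiment exposed the cells for 24 h to 10 uM of olaparib, veliparib or UPF1069, or to DMSO, the solvent. Olaparib and veliparib inhibit both PARP1 and PARP2, and UPF1069 is sold as an inhibitor of PARP2. The other collected them 72 h after transfection of siPARP1_A, siPARP1_B, siPARP2_A or siPARP2_B, which are sequences A and B against each target, or of siNC, the control siRNA. No group carried an engineered allele, all groups are the same line, and an untreated or untransfected group was not analysed here. The series calls the libraries of a group biological duplicates but does not say whether they came from separate cultures. The p-values thus rest on a spread between libraries that may be technical. That spread was pooled over the groups of a table and drawn towards a trend over all genes.

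Base excision repair starts when a glycosylase cuts out a damaged or wrong base. An endonuclease then opens the strand, DNA polymerase beta fills the gap, and ligase III seals it on the scaffold XRCC1, to which PARP1 and PARP2 call the machinery by attaching ADP-ribose at the nick. Classical end joining holds broken ends with the Ku dimer and the kinase DNA-PKcs and seals them with ligase IV, whereas DNA polymerase theta joins ends through short matching stretches. Mismatch repair reads errors left by replication with dimers that hold MSH3 or MSH6, and a PMS2 dimer then cuts the new strand. Several of these genes are known to be transcribed together with the genes of DNA replication.

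The promoters of the members with the largest differences are shown because 3 of them, UNG, NEIL3 and POLQ, were lowest in the same groups, while TDG and PMS2 were raised there or in other groups. Each line is the stretch free of annotated exons within the 250 bases before a RefSeq start, 5′ to 3′ on the gene's strand, from GRCh38.p14. The positions are chr12:109097922-109098117 (plus strand) for UNG, chr4:177309624-177309835 (plus) for NEIL3, chr3:121546007-121546238 (minus) for POLQ, chr12:103965709-103965803 (plus) for TDG and chr7:6009126-6009244 (minus) for PMS2. Capitals mark matches, on either strand, to an E2F site (TTTCCCGC, TTTCGCGC, TTTGCCGC or TTTGGCGC), to the CCAAT box (CCAAT) or to the CHR element of cell cycle genes (TTTGAA or TTCGAA).
UNG: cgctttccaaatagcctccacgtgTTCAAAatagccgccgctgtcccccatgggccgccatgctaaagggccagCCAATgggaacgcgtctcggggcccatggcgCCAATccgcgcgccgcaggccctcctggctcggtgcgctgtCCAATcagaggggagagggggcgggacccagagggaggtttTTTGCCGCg
NEIL3: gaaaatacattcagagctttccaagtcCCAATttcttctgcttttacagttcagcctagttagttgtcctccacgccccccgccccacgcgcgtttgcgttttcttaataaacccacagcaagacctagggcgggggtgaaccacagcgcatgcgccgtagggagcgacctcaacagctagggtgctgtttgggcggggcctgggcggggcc
POLQ: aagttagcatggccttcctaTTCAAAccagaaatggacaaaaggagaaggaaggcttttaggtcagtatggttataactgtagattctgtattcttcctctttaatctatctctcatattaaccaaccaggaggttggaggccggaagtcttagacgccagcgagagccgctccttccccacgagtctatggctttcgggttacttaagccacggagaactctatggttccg
TDG: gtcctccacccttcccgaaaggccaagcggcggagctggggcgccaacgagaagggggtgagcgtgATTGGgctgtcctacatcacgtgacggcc
PMS2: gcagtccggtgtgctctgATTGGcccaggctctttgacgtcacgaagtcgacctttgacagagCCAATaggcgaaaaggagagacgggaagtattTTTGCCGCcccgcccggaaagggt
No match shown overlaps another. Counts use the whole window of 250 bases, so a match outside the exon-free stretch, such as the CHR of NEIL3 at 24 bases before its start, is counted but not shown. Over 35116 windows of 27305 genes, 3.40% of genes held E2F letters, 37% a CCAAT box and 17.2% a CHR in at least 1 window. Of the 27 members with a promoter in the table, 3 held E2F letters (MSH3, PMS2 and UNG), 19 a CCAAT box and 6 a CHR (MUTYH, NEIL3, POLQ, TDP1, UNG and XRCC1). UNG held all 3 motifs in the window shown, with its E2F letters 63 bases before the start and 3 CCAAT boxes. Its other window, chr12:109097347-109097596, before another RefSeq start, held none of these motifs. A p53 site or an androgen response element was found in 0 members, and in 0.022% and 0.033% of all genes. A match describes these letters and is neither a bound site nor a cause.

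Recovered reads numbered 26.4 to 35.7 M per library with inhibitors and 15.5 to 18.6 M with siRNAs, and 3 reads made 0.0841 to 0.113 CPM (counts per M reads) or 0.169 to 0.207 normalised reads per M, for counting error only. PARP1 was at 452 and 479 normalised reads per M with siNC, at 4.78 and 5.67 with siPARP1_A and at 8.99 and 9.05 with siPARP1_B. PARP2 was at 29 and 25.8 with siNC, at 3.06 and 2.56 with siPARP2_A and at 1.78 and 1.014 with siPARP2_B. With siPARP2_B, PARP1 was also low, at 160 and 145, a log2 fold change of -1.60 (SE 0.07, limma adjusted p = 7.66e-16), whereas with siPARP2_A it was at 409 and 395. The 10 luminal prostate markers summed to 3795 to 5736 CPM per inhibitor library and to 2707 to 7258 normalised reads per M per siRNA library, lowest with olaparib and siPARP2_B. Of the markers of basal, stromal, leukocyte and endothelial cells, KRT14 stayed under 1 in all libraries, CD14 under 0.13 CPM and PTPRC under 0.32 normalised reads per M, while VWF reached 11.3 CPM and COL1A1 13.97 CPM. With siPARP2_B, VWF was at 8.51 and 8.23 normalised reads per M against 1.56 and 2.24 with siNC, a rise of 1.70 (adjusted p = 9.91e-10), and COL1A1 rose by 0.54 (adjusted p = 0.0117).

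Per kb of exon, the most abundant members in DMSO were XRCC6, the Ku70 subunit, at 207 CPM per kb, APEX1, the main endonuclease of base excision, at 186, and XRCC5, the Ku80 subunit, at 99.5. PRKDC, which encodes DNA-PKcs, followed at 39.4 and UNG, the glycosylase that removes uracil beside the replication fork, at 29.5. The lowest of the 30 tested was NEIL1, a glycosylase for oxidised bases, at 0.672 CPM per kb. In siNC the same 3 genes were highest, XRCC6 at 259, APEX1 at 194 and XRCC5 at 157 normalised reads per M per kb, and NEIL1 was again the lowest tested, at 0.365.

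NHEJ1, which encodes the XLF factor that aligns ends for ligase IV, lay between 0.0377 and 0.311 CPM in the inhibitor libraries, and between 0 and 0.416 normalised reads per M with siRNAs. These are 0 to 9 reads a library, near the 3-read floor in most. In GENCODE 29, a readthrough gene on the same strand, AC068946.1, covers 65.4% of the exon bases of NHEJ1, so that reads of NHEJ1 may have been left uncounted, which was not tested. APLF, a scaffold of end joining that binds ADP-ribose chains, was at 0.393 and 0.476 CPM with olaparib, which is 13 and 17 reads, against 0.0357 to 0.158 CPM in the other 6 inhibitor libraries. It was at 0.654 and 0.733 normalised reads per M with siPARP2_B, which is 11 and 13 reads, against 0.0649 to 0.446 in the other 8 siRNA libraries. These levels were under the filter and were not tested, and 22.8% of the exon bases of APLF lie in PROKR1 on the same strand.

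Fold changes below were computed from log2(value + 1), so those of weakly expressed genes are too small, and adjusted p-values come from limma with Benjamini-Hochberg adjustment over all genes tested in a comparison, 13337 for the inhibitors and 12701 for the siRNAs. A gene is said to rise or fall where that p is below 0.05. In bulk RNA, fewer cells that express a gene and less of its RNA per cell cannot be told apart. The inhibitors share the DMSO libraries, and the siRNAs share the siNC libraries.

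The inhibitor experiment asks whether the compounds leave the same trace on the transcripts of LNCaP cells. Olaparib lowered more repair genes than it raised: 14 of 30 fell, led by POLQ, NEIL3, APEX2 and TDP1, and 3 rose, led by PMS2. That is 46.7% lower and 10.0% higher, against 26.8% lower and 25.8% higher among all genes tested. With veliparib, 9 of 30 rose, among them PRKDC and POLQ, and 7 fell, among them NEIL1, MPG and MUTYH. That is 30.0% higher and 23.3% lower, against 17.2% of all genes higher and 23.2% lower. The share that fell was thus near that of all genes. With UPF1069, 4 fell (NEIL3, NTHL1, XRCC6 and TDP1) and PRKDC alone rose. That is 13.3% lower and 3.3% higher, against 14.0% of all genes lower and 10.3% higher, so the share that fell was again near that of all genes.

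In the siRNA experiment, which asks the same of the loss of either enzyme, siPARP2_A raised 16 of 30 repair genes and lowered 4, which is 53.3% higher and 13.3% lower, against 24.5% higher and 24.9% lower among all genes. SiPARP2_B lowered 13 and raised 7, against 35.2% of all genes lower and 30.9% higher. With siPARP1_A, 11 fell and 4 rose, against 28.9% and 25.5% of all genes, and with siPARP1_B, 4 fell and 3 rose, against 23.9% and 16.4%. The share of members that rose with siPARP2_A was thus above that of all genes, and the shares that fell with siPARP1_A and siPARP2_B, 36.7% and 43.3%, lay nearer to theirs. With siPARP1_B, 12 members passed in place of 7 once GC content and length were corrected for. Under the same correction 44.1% of all genes passed. All 10 luminal markers fell with siPARP1_A, siPARP2_A and siPARP2_B (median log2 fold changes -0.97, -0.96 and -1.54), and with siPARP1_B 5 fell and 1 rose, and the part of this in the results was not tested. The heat map shows the log2 fold changes of the 30 genes.

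**Figure D1:**
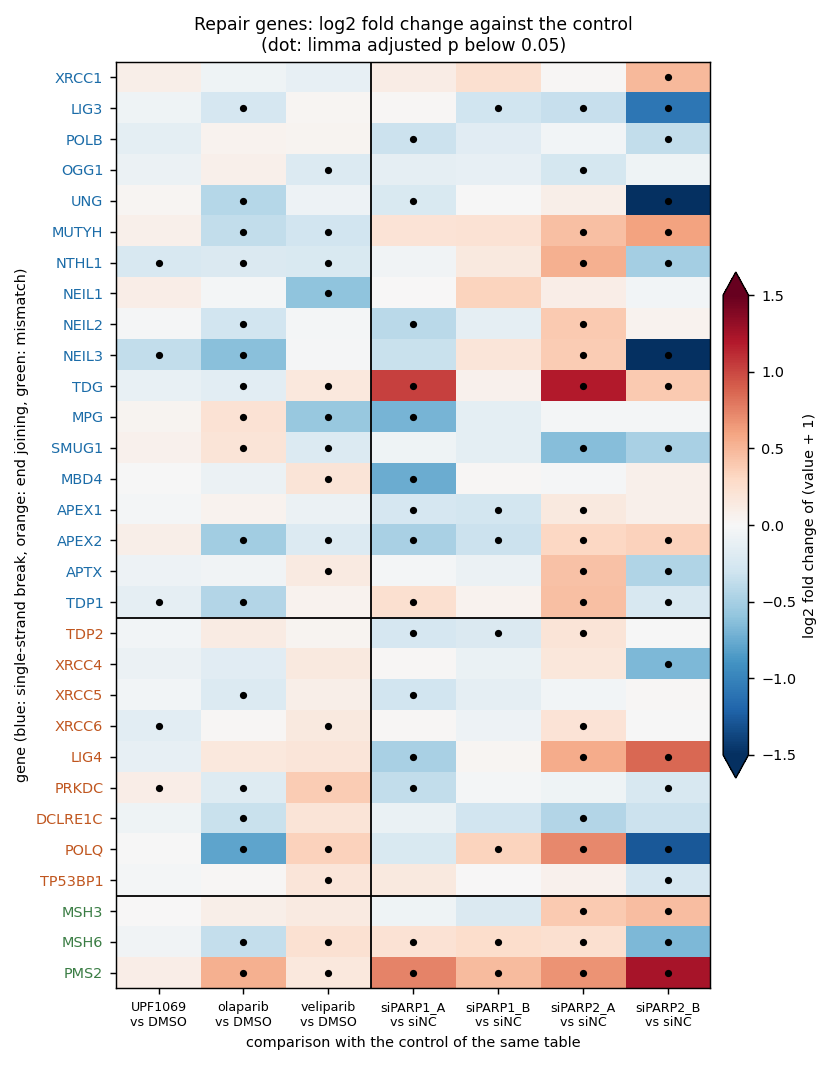
Log2 fold change of (value + 1) of the 30 repair genes tested (rows, gene names coloured by branch) in the 7 comparisons with the control of the same table (columns), with a dot where the limma adjusted p was below 0.05. Most cells are pale, the row of PMS2 is above 0 in every column, and UNG and NEIL3 with siPARP2_B, at -2.97 and -2.53, lie beyond the end of the colour scale.

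The 11 glycosylases are given by the base they remove, starting with uracil and thymine. UNG was at 77.7 and 81.1 normalised reads per M with siNC and at 9.58 and 8.90 with siPARP2_B, from 161 and 158 reads. All 8 other siRNA libraries lay between 66.1 and 87.2, so siPARP2_B stood apart from every other group. On the fitted scale the fall was the largest among the members, to 0.127 of the siNC level (log2 fold change -2.97, SE 0.07, limma adjusted p = 2.35e-21). That scale adds 1 to each value, which shrinks the falls of weakly expressed genes. As means of deposited values NEIL3 fell by a larger factor, from 7.92 with siNC to 0.554 with siPARP2_B, against 79.4 to 9.24 for UNG. UNG did not pass with siPARP2_A (log2 fold change 0.08, adjusted p = 0.337) or with siPARP1_B (-0.00, adjusted p = 0.993). With siPARP1_A, at 66.1 and 69.6, it fell by 0.22 (SE 0.07, adjusted p = 0.00974), a call lost without siNC replicate 2 or siPARP1_A replicate 1. In the inhibitor table UNG was at 74.8 and 76.5 CPM with DMSO and at 53.9 and 58.3 with olaparib, without overlap, and it fell by 0.43 on the log2 scale (SE 0.05, adjusted p = 1.62e-07).

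TDG excises thymine or uracil opposite guanine and takes part in removing DNA methylation. It was at 110 and 101 normalised reads per M with siNC, at 209 and 224 with siPARP1_A and at 247 and 237 with siPARP2_A. Sequence A of each target thus gave the highest levels, 2.04 and 2.28 times siNC on the fitted scale, with log2 fold changes of 1.03 (SE 0.06, limma adjusted p = 3.58e-13) and 1.19 (SE 0.06, adjusted p = 4.4e-14). SiPARP2_B, at 141 and 136, gave a smaller rise of 0.39 (SE 0.06, adjusted p = 3.77e-06), and siPARP1_B, at 107 and 113, overlapped siNC (0.06, adjusted p = 0.436). With olaparib TDG fell by 0.16 and with veliparib it rose by 0.16, and the latter call was lost without DMSO replicate 1 and with a correction for GC content and length.

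MBD4, which also removes thymine opposite guanine and binds methylated CpG, was at 32.7 and 33.8 with siPARP1_A and at 59.0 and 54.2 with siNC. Its 6 libraries of the other PARP siRNAs lay between 55.0 and 60.0, so only the siPARP1_A libraries were outside the range of the rest. The fall of MBD4 with siPARP1_A was 0.75 on the log2 scale (SE 0.07, limma adjusted p = 1.81e-09). SMUG1, another uracil glycosylase, was at 41.2 and 43.6 with siNC, at 25.1 and 28.95 with siPARP2_A and at 31.4 and 28.5 with siPARP2_B. Both siPARP2 groups lay below all libraries of the other 3 groups, with log2 fold changes of -0.63 (SE 0.08, adjusted p = 8.28e-07) and -0.49 (SE 0.08, adjusted p = 1.35e-05).

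Of the glycosylases for oxidised bases, NEIL3, which acts on single-stranded DNA and crosslinks and is known to be made in S phase, moved most. NEIL3 was at 8.38 and 7.47 normalised reads per M with siNC and at 0.714 and 0.394 with siPARP2_B, from 12 and 7 reads. The siPARP2_B libraries were far below all others, which ran from 5.73 to 11.3, and the log2 fold change was -2.53 (SE 0.14, limma adjusted p = 4.28e-14). With siPARP2_A, at 9.91 and 11.3, NEIL3 was higher than with siNC by 0.38 (SE 0.14, adjusted p = 0.0291), but this call was lost under 6 of 13 alternatives, among them leaving out siNC replicate 2 or siPARP2_A replicate 2. In the inhibitor table NEIL3 was at 11.8 and 11.97 CPM with DMSO, at 9.21 and 8.70 with UPF1069, at 7.81 and 6.89 with olaparib and at 11.3 and 12.2 with veliparib. Olaparib libraries were the lowest and those of UPF1069 came next, both apart from DMSO, with log2 fold changes of -0.63 (SE 0.08, adjusted p = 1.34e-06) and -0.37 (SE 0.08, adjusted p = 0.0021). The difference for veliparib was -0.02 (adjusted p = 0.893), and its libraries lay on both sides of those of DMSO.

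NTHL1, for oxidised pyrimidines, was at 27.8 and 26.3 CPM with DMSO, at 23.1 and 22.4 with UPF1069, at 24.2 and 22.1 with olaparib and at 21.9 and 23.8 with veliparib. DMSO was above all treated libraries, and the log2 fold changes were -0.24 (SE 0.07, limma adjusted p = 0.0104), -0.22 (adjusted p = 0.00768) and -0.23 (adjusted p = 0.00653). Each of these 3 calls of NTHL1 was lost without DMSO replicate 1, and with veliparib the correction for GC content and length turned its direction, to a log2 fold change of 0.07 (adjusted p = 0.44). With the siRNAs against PARP2 it moved both ways, from 15.4 and 15.2 with siNC to 21.4 and 23.7 with siPARP2_A and to 9.81 and 11.2 with siPARP2_B. The groups did not overlap, at log2 fold changes of 0.53 (adjusted p = 0.000334) and -0.51 (adjusted p = 0.000328).

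MUTYH, which removes adenine paired with oxidised guanine, was at 29.9 and 31.3 CPM with DMSO, at 24.5 and 22.6 with olaparib and at 24.1 and 25.7 with veliparib. Both compounds lay below DMSO, at -0.37 (SE 0.06, limma adjusted p = 2.32e-05) and -0.29 (SE 0.06, adjusted p = 0.000581). With both siPARP2 sequences MUTYH rose instead, from 10.5 and 11.5 with siNC to 14.7 and 16.1 with siPARP2_A and 16.6 and 17.9 with siPARP2_B, by 0.45 (adjusted p = 0.00111) and 0.61 (adjusted p = 2.23e-05). Its partner OGG1, for oxidised guanine itself, fell with veliparib and with siPARP2_A, by 0.21 (adjusted p = 0.0207) and 0.26 (adjusted p = 0.0388), and each call was lost with 1 library left out. NEIL2, the remaining glycosylase of this kind beside NEIL1, fell with olaparib by 0.29 (adjusted p = 1.5e-05) and with siPARP1_A by 0.41 (adjusted p = 1.9e-05). It rose with siPARP2_A by 0.39 (adjusted p = 4.2e-05), and these calls of NEIL2 passed under every alternative.

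NEIL1 and MPG stood out with veliparib. NEIL1 was at 2.47 and 2.98 CPM with veliparib and between 4.30 and 5.23 in the other 6 libraries, a log2 fold change against DMSO of -0.61 (SE 0.10, limma adjusted p = 8.17e-05). MPG, the glycosylase for alkylated purines, was at 38.4 and 39.4 CPM with DMSO, at 27.3 and 24.6 with veliparib and at 45.9 and 45.0 with olaparib. Veliparib libraries were the lowest and olaparib libraries the highest, at -0.57 (SE 0.06, adjusted p = 5.37e-08) and 0.22 (SE 0.06, adjusted p = 0.00223) against DMSO. With siPARP1_A, MPG was at 23.9 and 24.0 normalised reads per M against 37.3 and 41.6 with siNC, below every library of the other groups, a log2 fold change of -0.70 (SE 0.08, adjusted p = 1.31e-07). More than 10% of the exon bases of 11 members lie in another annotated gene, among them 27.3% of MPG in NPRL3, 26.4% of NEIL1 in MAN2C1 and 29.1% of LIG3 in RFFL, on the opposite strand, and whether the counting used strand is not given in the sources used here.

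Downstream of the glycosylases, the endonucleases APEX1 and APEX2 fell with both siPARP1 sequences. APEX1 was at 361 and 372 normalised reads per M with siNC, at 304 and 310 with siPARP1_A and at 306 and 299 with siPARP1_B. The siPARP1 libraries were below all others, and the log2 fold changes were -0.25 (SE 0.05, limma adjusted p = 0.00023) and -0.28 (SE 0.05, adjusted p = 0.000171). APEX2, the related nuclease that trims 3′ ends, was at 29.8 and 29 with siNC, at 19.5 and 21.98 with siPARP1_A and at 24.0 and 22.7 with siPARP1_B, but at 34.8 and 39.0 with siPARP2_A and 36.6 and 38.9 with siPARP2_B. The siPARP1 libraries were below siNC and the siPARP2 libraries above it, at -0.49 (adjusted p = 4.32e-05), -0.32 (SE 0.09, adjusted p = 0.00468), 0.32 (adjusted p = 0.00403) and 0.35 (adjusted p = 0.00108). The difference between the mean of the siPARP2 and the mean of the siPARP1 sequences was 0.73 for APEX2 (SE 0.06, adjusted p = 1.43e-10) and 0.37 for APEX1 (SE 0.04, adjusted p = 3.23e-09). The call of APEX2 with siPARP2_A was lost without siPARP2_A replicate 2 (adjusted p = 0.0849).

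With olaparib, APEX2 was at 39.7 and 39.1 CPM against 56.2 and 57.6 with DMSO, and with veliparib at 48.3 and 50.4. Olaparib gave the lowest values, veliparib came between, and UPF1069, at 61.5 and 59.8, was above DMSO without passing. Log2 fold changes were -0.52 (SE 0.05, limma adjusted p = 5.53e-09) with olaparib, -0.20 (SE 0.05, adjusted p = 0.00184) with veliparib and 0.09 (adjusted p = 0.18) with UPF1069.

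LIG3, the ligase that seals the repaired nick, was at 46.2 and 49.8 normalised reads per M with siNC, at 38.1 and 39.5 with siPARP1_B, at 36.7 and 38.6 with siPARP2_A and at 22.8 and 21.5 with siPARP2_B. SiPARP2_B was lowest and the siPARP1_A libraries, at 49.9 and 47.7, lay within the siNC range or just above it. LIG3 fell by 0.30 (SE 0.08, limma adjusted p = 0.00289) with siPARP1_B, by 0.34 (adjusted p = 0.000634) with siPARP2_A and by 1.08 (SE 0.08, adjusted p = 4.89e-12) with siPARP2_B. Its scaffold partner XRCC1 passed in 1 of 7 comparisons, a rise of 0.49 with siPARP2_B (SE 0.14, adjusted p = 0.00383) that was not called under every alternative, and the gap-filling polymerase POLB fell with siPARP1_A by 0.33 (adjusted p = 0.000769) and with siPARP2_B by 0.37 (adjusted p = 0.000143).

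TDP1, which frees DNA ends from stalled topoisomerase I, was at 59.3 and 60.9 CPM with DMSO, at 55.4 and 53.9 with UPF1069 and at 44.1 and 44.2 with olaparib. Both were below DMSO, by 0.14 (SE 0.05, limma adjusted p = 0.0359) and 0.44 (SE 0.05, adjusted p = 4.8e-08) on the log2 scale. The smaller difference was lost under 7 of 13 alternatives. TDP1 and APTX, which removes the adenylate left by failed ligation, both rose with siPARP2_A and fell with siPARP2_B. For TDP1 the log2 fold changes were 0.45 (SE 0.07, adjusted p = 1.29e-05) and -0.25 (SE 0.07, adjusted p = 0.00457), and for APTX 0.44 (SE 0.06, adjusted p = 2.92e-06) and -0.46 (SE 0.06, adjusted p = 6.8e-07). APTX was at 102 and 103 normalised reads per M with siNC, at 136 and 141.9 with siPARP2_A and at 73.4 and 75.1 with siPARP2_B, with no overlap among these groups.

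**Figure D2:**
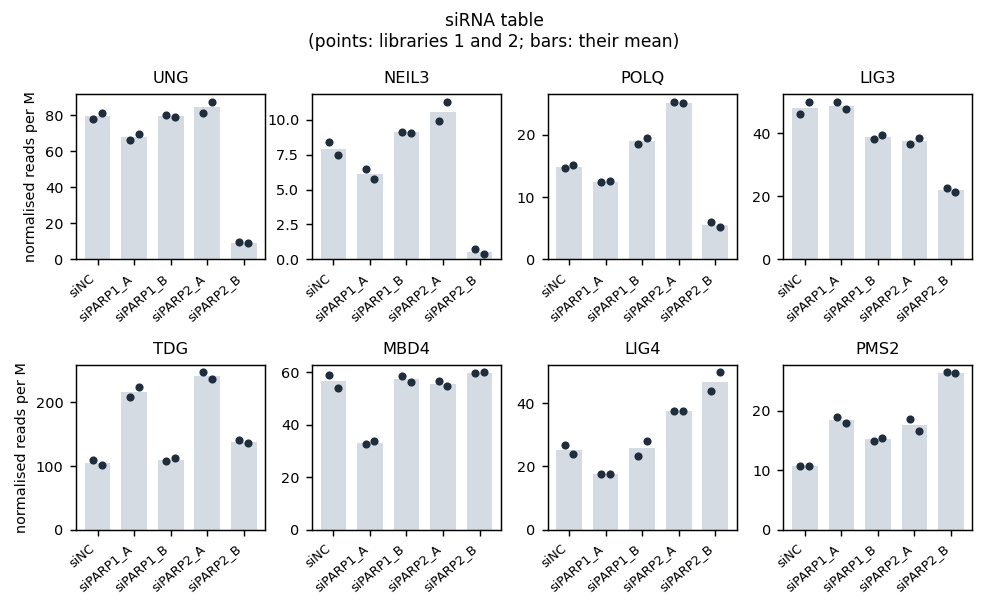
Normalised reads per M of 8 repair genes in the 10 siRNA libraries, with each library as a point and the mean of a group as a bar from 0. UNG and NEIL3 are near 0 with siPARP2_B alone, TDG is raised in both sequences A, MBD4 is low with siPARP1_A, and PMS2 is above siNC in all 4 PARP siRNA groups.

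In the end-joining branch, POLQ, the polymerase of theta-mediated joining, differed most. It was at 37.9 and 39.6 CPM with DMSO, at 39.1 and 37.8 with UPF1069, at 21.1 and 22.9 with olaparib and at 50.8 and 48.4 with veliparib. Olaparib lay below and veliparib above both DMSO libraries, while UPF1069 overlapped them. Log2 fold changes of POLQ were -0.79 with olaparib (SE 0.06, limma adjusted p = 7.3e-11), 0.35 with veliparib (SE 0.06, adjusted p = 3.55e-05) and -0.01 with UPF1069 (adjusted p = 0.923).

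In the siRNA table POLQ was at 14.6 and 15.1 with siNC, at 12.5 in both siPARP1_A libraries, at 18.5 and 19.5 with siPARP1_B, at 25.3 and 25.1 with siPARP2_A and at 6.01 and 5.18 with siPARP2_B. No PARP siRNA group overlapped siNC, and sequences A and B of each target lay on opposite sides of it. POLQ rose by 0.72 with siPARP2_A (SE 0.10, limma adjusted p = 2.6e-06) and fell by 1.27 with siPARP2_B (SE 0.10, adjusted p = 6.99e-11). The rise of 0.33 with siPARP1_B (SE 0.10, adjusted p = 0.0118) was lost without siNC replicate 1 (adjusted p = 0.0619) or siPARP1_B replicate 2 (adjusted p = 0.0865), and the difference of -0.23 with siPARP1_A did not pass (adjusted p = 0.0609).

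PRKDC, the kinase subunit DNA-PKcs, was at 609 and 606 CPM with DMSO, at 649 and 656 with UPF1069, at 528 and 534 with olaparib and at 798 and 780 with veliparib. The 4 groups were all apart, with veliparib highest and olaparib lowest. PRKDC rose by 0.38 with veliparib (SE 0.03, limma adjusted p = 2.79e-08) and fell by 0.19 with olaparib (SE 0.03, adjusted p = 7.11e-05). The rise of 0.10 with UPF1069 (SE 0.03, adjusted p = 0.0339) was lost with any 1 of the 4 libraries left out (adjusted p from 0.0711 to 0.239 over the alternatives that lost it). With siPARP1_A, PRKDC was at 348 and 310 against 431 and 418 with siNC, and fell by 0.37 (adjusted p = 0.000151).

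The Ku genes moved little. XRCC6 was at 673 and 690 CPM with DMSO, at 606 and 615 with UPF1069, at 682 and 698 with olaparib and at 750 and 759 with veliparib. UPF1069 was below and veliparib above DMSO, at -0.16 (SE 0.04, limma adjusted p = 0.0021) and 0.15 (SE 0.04, adjusted p = 0.00215), and olaparib overlapped DMSO. The call with UPF1069 was lost without DMSO replicate 2 or without UPF1069 replicate 1, and that with veliparib without DMSO replicate 1. XRCC5 fell by 0.21 with olaparib (adjusted p = 9.45e-05) and by 0.29 with siPARP1_A (adjusted p = 6.87e-05), and did not pass in the other 5 comparisons with a control.

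LIG4, the ligase of classical end joining, was at 26.6 and 23.9 normalised reads per M with siNC, at 17.7 and 17.6 with siPARP1_A, at 37.6 and 37.5 with siPARP2_A and at 43.95 and 49.7 with siPARP2_B. SiPARP1_A lay below and both siPARP2 groups above siNC, while siPARP1_B, at 23.4 and 28.2, surrounded it. Log2 fold changes of LIG4 were -0.49 with siPARP1_A (SE 0.09, limma adjusted p = 9.01e-05), 0.55 with siPARP2_A (SE 0.09, adjusted p = 2.42e-05) and 0.86 with siPARP2_B (SE 0.09, adjusted p = 1.13e-08). XRCC4, the partner of LIG4 in the ligase complex, did not rise with it: XRCC4 was at 9.74 and 9.42 with siNC and at 5.35 and 5.92 with siPARP2_B, where it fell by 0.67 (SE 0.12, adjusted p = 4.15e-05). The nuclease gene DCLRE1C (Artemis) fell with olaparib and siPARP2_A, and TDP2, which frees ends from topoisomerase II, fell with both siPARP1 sequences and rose with siPARP2_A, all with 1 or more alternatives that lost the call. TP53BP1, which limits end resection, rose with veliparib and fell with siPARP2_B, and both calls were lost under at least 1 alternative.

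**Figure D3:**
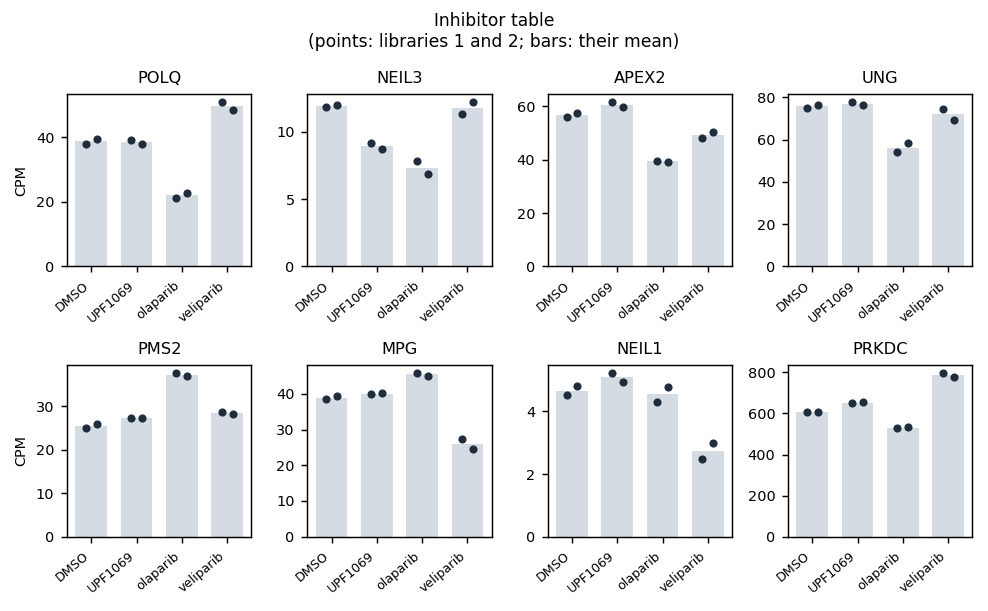
CPM of 8 repair genes in the 8 inhibitor libraries, with each library as a point and the mean of a group as a bar from 0. Olaparib gives the lowest values of POLQ, NEIL3, APEX2 and UNG and the highest of PMS2, and veliparib the lowest of MPG and NEIL1 and the highest of PRKDC.

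Of the 3 mismatch repair genes, PMS2, the subunit that nicks the new strand, was higher than the control in all 7 comparisons and passed in 6. In the siRNA table PMS2 was at 10.6 and 10.7 with siNC, at 19.0 and 18.0 with siPARP1_A, at 14.9 and 15.5 with siPARP1_B, at 18.7 and 16.6 with siPARP2_A and at 26.5 and 26.4 with siPARP2_B. All 8 PARP siRNA libraries lay above both siNC libraries, and those of siPARP2_B were highest. Log2 fold changes of PMS2 were 0.74 (SE 0.10, limma adjusted p = 5e-07), 0.47 (SE 0.10, adjusted p = 0.000355), 0.67 (SE 0.10, adjusted p = 2.82e-06) and 1.23 (SE 0.10, adjusted p = 3.37e-11), in that order. In the inhibitor table it was at 25.0 and 25.8 CPM with DMSO, at 27.3 and 27.2 with UPF1069, at 37.6 and 36.8 with olaparib and at 28.5 and 28.1 with veliparib. Olaparib stood apart, with a rise of 0.54 (SE 0.06, adjusted p = 3.21e-08). The rise of 0.15 with veliparib (adjusted p = 0.0297) was lost under 6 of 13 alternatives, and 0.10 with UPF1069 did not pass (adjusted p = 0.203).

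The counts of PMS2 are uncertain, because near-identical copies such as PMS2CL and PMS2P1 share its sequence and reads could be split among them. With siPARP2_B, PMS2P1 was at 10.9 and 11.9 against 11.8 and 11.3 with siNC, and 0 of the 3 copies tested passed (limma adjusted p = 0.912 for PMS2P1 and 0.19 for PMS2CL). In the siPARP1_A, siPARP1_B and siPARP2_A libraries PMS2P1 was higher than with siNC, by 0.42, 0.28 and 0.29 (adjusted p = 0.00181, 0.0375 and 0.0264). With olaparib the log2 fold change of PMS2CL was 0.02 (adjusted p = 0.883) and that of PMS2P1 -0.02 (adjusted p = 0.82).

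MSH6, which recognises single mismatches, passed in 6 of 7 comparisons, 4 higher and 2 lower. It was at 71.4 and 68.5 normalised reads per M with siNC, at 84.6 and 77.8 with siPARP1_A, at 82.6 and 85.5 with siPARP1_B, at 82.4 and 83.4 with siPARP2_A and at 42.9 and 44.01 with siPARP2_B. SiPARP2_B thus lay below siNC and the other PARP siRNA groups above it, with log2 fold changes of 0.21 (SE 0.06, limma adjusted p = 0.00778), 0.26 (SE 0.06, adjusted p = 0.00232), 0.24 (SE 0.06, adjusted p = 0.00329) and -0.67 (SE 0.06, adjusted p = 1.65e-09). The first of these calls was lost without siNC replicate 2 or siPARP1_A replicate 1. With the inhibitors MSH6 fell by 0.36 with olaparib (adjusted p = 4.97e-07) and rose by 0.23 with veliparib (adjusted p = 0.000329), the latter lost once GC content and length were corrected for (adjusted p = 0.494). MSH3, which recognises loops, rose with siPARP2_A and siPARP2_B, by 0.39 (adjusted p = 0.00081) and 0.46 (adjusted p = 7.09e-05), and with no inhibitor.

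Medians and counts of the 3 branches follow for each comparison. With veliparib, 4 of 9 end-joining genes rose and 0 fell (median log2 fold change 0.18), 2 of 3 mismatch genes rose and 0 fell (0.15), and of 18 single-strand break genes 3 rose and 7 fell (-0.08), 6 of those 7 being glycosylases. With olaparib the median was -0.17 for end joining (0 higher, 4 lower), -0.12 for single-strand break repair (2 higher, 9 lower) and 0.09 for mismatch repair (1 higher, 1 lower). With UPF1069 the medians were -0.05 (1 higher, 1 lower), -0.03 (0 and 3) and 0.01 (0 and 0) in the same order. Of all genes tested, 17.2% rose and 23.2% fell with veliparib, 25.8% and 26.8% with olaparib, and 10.3% and 14.0% with UPF1069. The median of all genes tested lay between -0.03 and 0.00 in the 7 comparisons with a control. No test of one branch against another was made, and 3 mismatch genes are few.

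With siPARP1_A the median was -0.23 for end joining (0 higher, 4 lower), -0.10 for single-strand break repair (2 and 7) and 0.21 for mismatch repair (2 and 0), and with siPARP1_B -0.08 (1 and 1), -0.04 (0 and 3) and 0.26 (2 and 0). In siPARP2_A libraries all 3 medians were above 0, at 0.17 (4 and 1), 0.12 (9 and 3) and 0.39 (3 and 0). In siPARP2_B libraries they were -0.24 (1 and 4), -0.05 (4 and 8) and 0.46 (2 and 1). Of all genes tested, 25.5% rose and 28.9% fell with siPARP1_A, and 16.4% and 23.9% with siPARP1_B. With siPARP2_A these shares were 24.5% and 24.9%, and with siPARP2_B 30.9% and 35.2%. The mismatch median was therefore above those of the other branches in all 4 siRNA comparisons. Among the siRNAs, the 3 mismatch genes moved one way with siPARP2_A alone. With siPARP2_B, MSH6 fell while PMS2 and MSH3 rose. With siPARP1_A and siPARP1_B, PMS2 and MSH6 rose. MSH3 was lower than with siNC in these comparisons without passing, at log2 fold changes of -0.07 and -0.22. Counting TDP2 and APLF with single-strand break repair changed the end-joining median with siPARP1_A from -0.23 to -0.17. Over the 7 comparisons with a control, 20 of 98 alternative branch medians moved from the main median. A move was a shift of at least the standard deviation between the medians of the replicate libraries.

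**Figure D4:**
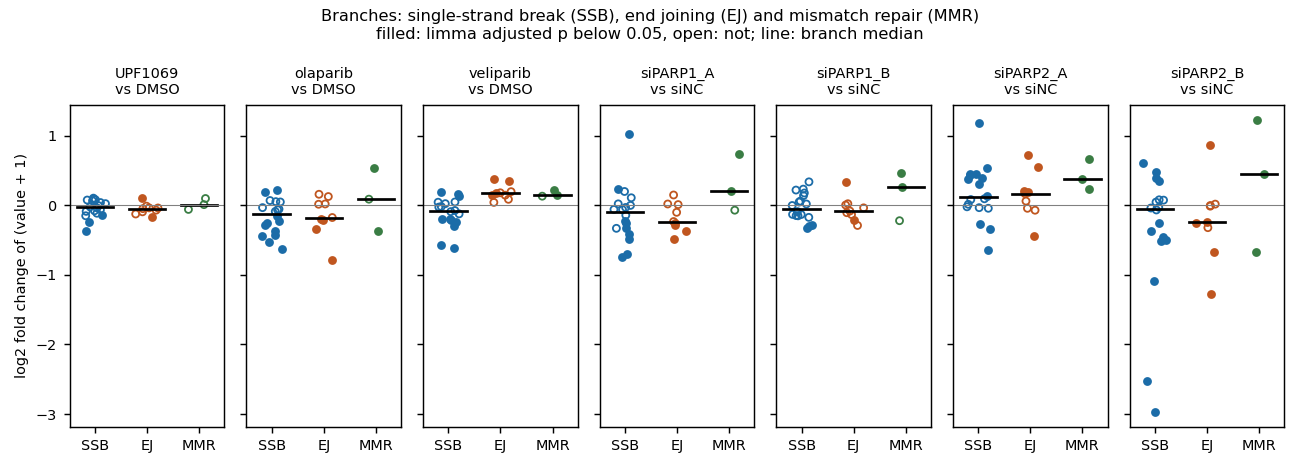
Log2 fold change of (value + 1) of each tested gene by branch, single-strand break repair (SSB, 18 genes), end joining (EJ, 9) and mismatch repair (MMR, 3), in the 7 comparisons with a control. Filled points have a limma adjusted p below 0.05 and lines are branch medians. These lie above 0 for MMR in all 7 comparisons, for EJ with veliparib and siPARP2_A only, and for SSB with siPARP2_A only. The other medians lie below 0.

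Cell cycle genes moved in some of the same comparisons, and their part in the results was not tested. With olaparib, 19 of 19 S phase genes fell (median log2 fold change -0.81) and 18 of 18 G2/M genes fell (-0.85), and the S phase list summed to 1435 to 1442 CPM against 2456 to 2465 with DMSO. With siPARP2_B, 19 of 19 and 18 of 18 fell (medians -1.41 and -2.48), and the G2/M list summed to 143 to 158 normalised reads per M against 969 to 985 with siNC. UNG, NEIL3 and POLQ were lowest in these same groups. With siPARP1_A, 15 S phase genes fell and 1 rose, whereas 9 G2/M genes rose and 1 fell. With UPF1069, 17 G2/M genes fell while 6 S phase genes fell and 1 rose, and with siPARP2_A, 7 S phase genes rose and 1 fell.

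The veliparib libraries also differed from DMSO in RNA without a poly(A) tail and by GC content. These RNAs, 5 in all, summed to 778 to 846 CPM with veliparib against 122 to 125 with DMSO, 182 to 236 with UPF1069 and 132 to 257 with olaparib. Across 13075 genes, Spearman's rho between GC content and the log2 fold change was -0.69 with veliparib, 0.11 with UPF1069 and -0.12 with olaparib, as a description of genes that share libraries. After correction for GC content and length, 9 of 30 members passed with veliparib, 4 higher and 5 lower, against 7.5% of all genes higher and 17.3% lower under the same correction, so the 5 lower are near the share of all genes. NEIL1 then differed by -0.39 (limma adjusted p = 0.00598), MPG by -0.24 (adjusted p = 0.0011), PRKDC by 0.20 (adjusted p = 4.62e-06) and POLQ by 0.18 (adjusted p = 0.00574), while MUTYH no longer passed (-0.07, adjusted p = 0.378). The medians of the single-strand break, end-joining and mismatch branches were then -0.06, 0.06 and 0.04.

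Compared with each other at the same dose and time, the compounds differed in many of these genes. Olaparib, a phthalazinone, against veliparib, a benzimidazole carboxamide, gave 17 of 30 lower and 6 higher, against 27.7% of all genes lower and 31.7% higher. The largest of these differences were POLQ at -1.14 (SE 0.06, limma adjusted p = 1.2e-13), MPG at 0.79 (SE 0.06, adjusted p = 5.49e-11), NEIL3 at -0.61 (SE 0.08, adjusted p = 1.44e-06), MSH6 at -0.59 (SE 0.04, adjusted p = 1.77e-10) and NEIL1 at 0.58 (SE 0.10, adjusted p = 6.16e-05). The 7 end-joining genes that passed were lower with olaparib, but 3 of them lost the call under an alternative, TP53BP1, XRCC4 and XRCC6, and TP53BP1 was at adjusted p = 0.574 after the correction for GC content and length. No difference passed for POLB, at 0.00 with a 95% interval from -0.13 to 0.14, for NTHL1, at 0.02 (-0.12 to 0.15), or for LIG4, at -0.02 (-0.18 to 0.13).

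UPF1069 against olaparib gave 12 higher and 7 lower, against 24.2% and 27% of all genes. POLQ was higher with UPF1069 by 0.78 (SE 0.06, limma adjusted p = 1.12e-10), APEX2 by 0.61 (SE 0.05, adjusted p = 4.65e-10) and UNG by 0.45 (SE 0.05, adjusted p = 7.81e-08), while PMS2 was lower by 0.44 (SE 0.06, adjusted p = 8.58e-07). UPF1069 against veliparib gave 6 higher and 14 lower, against 25.9% and 24.9% of all genes, with NEIL1 higher by 0.71 (SE 0.10, adjusted p = 7.83e-06) and MPG by 0.61 (SE 0.06, adjusted p = 1.05e-08). Correction for GC content and length lost 9 of these 20 calls, though not those of NEIL1 and MPG. Spearman's rho between GC content and the log2 fold change was 0.64 for UPF1069 against veliparib and 0.33 for olaparib against veliparib. For NTHL1, UPF1069 differed from olaparib by -0.02 (95% interval -0.15 to 0.12) and from veliparib by -0.00 (-0.14 to 0.13). For NEIL2 it differed from veliparib by 0.00 (-0.09 to 0.10) but from olaparib by 0.27 (SE 0.05, adjusted p = 4.49e-05).

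The sequences of a target share the siNC libraries, so nothing is read from how many genes passed with both. MSH6 and PMS2 rose, and APEX1, APEX2 and TDP2 fell, with siPARP1_A and with siPARP1_B. Tested against each other, siPARP1_A gave 4 members higher and 9 lower than siPARP1_B, against 28.4% and 26.5% of all genes. The largest differences were TDG at 0.97 (SE 0.06, limma adjusted p = 1.21e-12), MBD4 at -0.77 (SE 0.07, adjusted p = 1.09e-09) and POLQ at -0.57 (SE 0.10, adjusted p = 5.19e-05). No difference passed for APEX1 (0.02, 95% interval -0.09 to 0.13) or OGG1 (-0.01, -0.22 to 0.20).

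With siPARP2_A and with siPARP2_B, APEX2, LIG4, MSH3, MUTYH, PMS2 and TDG rose and LIG3 and SMUG1 fell. APTX, MSH6, NEIL3, NTHL1, POLQ and TDP1 rose with siPARP2_A and fell with siPARP2_B. Tested against each other, siPARP2_A gave 16 members higher and 3 lower, against 34.3% and 30.6% of all genes, led by UNG at 3.06 (SE 0.07, limma adjusted p = 1.57e-21), NEIL3 at 2.90 (SE 0.14, adjusted p = 2.88e-15) and POLQ at 1.99 (SE 0.10, adjusted p = 1.15e-14). No difference passed for APEX2 (-0.03, 95% interval -0.21 to 0.15) or MPG (-0.00, -0.18 to 0.17).

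The mean of the siPARP2 against the mean of the siPARP1 sequences gave 13 members higher and 8 lower, against 33.3% and 32.2% of all genes. LIG4 was higher by 0.94 (SE 0.07, limma adjusted p = 5.27e-12) and APEX2 by 0.73, and for both every siPARP2 library lay above every siPARP1 library. UNG was lower by 1.33 (SE 0.05, adjusted p = 3.09e-17), but this rests on siPARP2_B, since siPARP2_A libraries, at 81.3 and 87.2, lay above those of both siPARP1 sequences.

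Other genes of the same pathways, 49 from a list drawn up for this comparison, moved as follows. Of 48 tested with the inhibitors, 25 fell and 6 rose with olaparib, 13 fell and 12 rose with veliparib, and 7 fell and 7 rose with UPF1069. Among all genes tested, 26.8% fell and 25.8% rose with olaparib, 23.2% and 17.2% with veliparib, and 14.0% and 10.3% with UPF1069. Among the 48, the largest changes with olaparib were in MDC1, the scaffold at double-strand breaks, at -1.29 (limma adjusted p = 1.24e-14), and in FEN1, the flap nuclease of long-patch repair, at -0.91 (adjusted p = 6.78e-14). The largest rises were 0.30 for C7orf49, a Ku-binding regulator, and 0.29 for PARP3. H2AFX, the histone marked at breaks, fell by 0.65 with veliparib and by 0.53 with UPF1069 (adjusted p = 4.01e-11 and 5.43e-10). RAD50 of the end-resection complex rose by 0.43 with veliparib (adjusted p = 3.81e-07), and POLD4, a polymerase delta subunit, rose by 0.35 with UPF1069 (adjusted p = 0.00449). The changes with veliparib are given without the correction for GC content and length.

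Of the 47 tested with the siRNAs, 25 fell and 11 rose with siPARP2_B, 4 fell and 14 rose with siPARP2_A, 17 fell and 9 rose with siPARP1_A, and 15 fell and 4 rose with siPARP1_B. Among all genes tested, 35.2% fell and 30.9% rose with siPARP2_B, and 24.9% and 24.5% with siPARP2_A. The shares were 28.9% and 25.5% with siPARP1_A, and 23.9% and 16.4% with siPARP1_B. Beside the targeted PARP genes, EXO1, the exonuclease of mismatch repair, fell by 3.18 with siPARP2_B (limma adjusted p = 1.84e-17), from 25.1 to 1.89 normalised reads per M, and FEN1 fell by 1.01 with siPARP1_A (adjusted p = 1.33e-10). POLD4 rose by 0.95 with siPARP2_B (adjusted p = 1.25e-06). HMGB1, a chromatin protein that binds bent DNA, rose with siPARP1_A, siPARP1_B and siPARP2_A by 0.37, 0.55 and 0.65 (adjusted p = 2.7e-06, 1.27e-08 and 5e-10).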

How the data were processed

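RNA from LNCaP cells was sequenced in 18 libraries. The inhibitor table holds CPM and the siRNA table a normalised signal in reads per M of a scaled library size, both as deposited by the authors. Per the submitters' processing notes, the tools were TopHat2 2.1.0, bcl2fastq 2.18, edgeR 3.12.0 and HTSeq 0.6.1 and the build was hg19, with no roles given. Values are whole reads times a step, and 100% of values above 0 came within 0.01 of a whole read.

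The main test was limma 3.58.1 (trend, R 4.3.3) on log2(value + 1), 2-sided, for genes whose mean was 1 or more, with all groups of a table in 1 fit, no covariates, and Benjamini-Hochberg adjustment over all genes at 0.05. The fits had 4 and 5 residual degrees of freedom and 17.6 and 19.0 prior ones, so the spread of a gene rested mostly on the trend over genes. Groups that shared this spread were not equally noisy. A chi-square per gene between the libraries of a group, on reads, ran from 1.32 (UPF1069) to 6.38 (veliparib) with inhibitors. With siRNAs it ran from 2.64 (siPARP1_A) to 8.08 (siNC). Tables were normalised and fitted apart. Alternatives were a pseudocount of 0.25, no filter or a minimum mean of 5, DESeq2 size factors (RLE), edgeR 4.0.16 and DESeq2 1.42.0 on recovered reads, only the groups compared, a replicate block, each library left out, a smooth correction for GC content and length (mgcv 1.9.3, 98.0% and 98.2% of genes with values), and TDP2 and APLF in the other branch. The procedure was tested on simulated data.

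The genes and lists were chosen with earlier results of these data known. Named with values in every library are, per comparison with a control, the 5 members with the largest absolute log2 fold change that passed without overlap, and the members under the filter, and other members were chosen for mention after their values were seen. Of other pathway genes at most 2 per direction were named. Promoters came from RefSeq, GRCh38.p14. Exon lengths and overlaps came from GENCODE 29, and coordinates of the authors' build were not used.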

Additional observations from a re-analysis of the deposited data

Results flagged for a closer look

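Sequences A and B against PARP2 moved 6 repair genes in opposite directions against siNC, and their difference was tested directly with limma. On the log2 scale siPARP2_A minus siPARP2_B was 2.90 for the glycosylase NEIL3, 1.99 for the polymerase POLQ, 1.04 for the glycosylase NTHL1, 0.92 for MSH6 of mismatch repair, 0.89 for APTX and 0.70 for TDP1, which both clean DNA ends. In each of the 6, both siPARP2_A libraries lay above both siNC libraries and both siPARP2_B libraries below them. The rise of NEIL3 with siPARP2_A was the only 1 of these 12 calls that any alternative lost. PARP1, at 160 and 145 normalised reads per M with siPARP2_B and 409 and 395 with siPARP2_A, differed between the same libraries, and its part in these differences was not tested.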

How the results depend on the processing

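Of 117 alternative counts of called members other than those with a library left out, 112 stayed within 1.5 times the main count. With UPF1069 against DMSO the main count of 5 became 3 with DESeq2 and 8 with only the groups compared, and leaving out 1 library gave 1 to 2. The share of all genes moved in the same directions, from 24.3% to 16.4%, to 37.8% and to between 11.8% and 13.3%, in that order. NEIL3 alone kept its call under all alternatives. After correction for GC content and length, the count was 9 in place of 16 for veliparib against DMSO, 13 in place of 20 for UPF1069 against veliparib, and 12 in place of 7 for siPARP1_B against siNC. Under the same correction 24.8%, 40.1% and 44.1% of all genes passed, in that order. The cause of these changed counts was not tested. Leaving out 1 library gave 8 to 20 for veliparib against DMSO (8 without DMSO replicate 1) and 13 to 18 in place of 20 for siPARP2_A against siNC (13 without siPARP2_A replicate 2). Of all genes, 26.7% to 50.8% then passed with veliparib, in place of 40.4%. With siPARP2_A, 38.8% to 42.9% then passed, in place of 49.4%. Of the called members, 5 of 16 with veliparib, 14 of 17 with olaparib, 11 of 15 with siPARP1_A, 5 of 7 with siPARP1_B, 13 of 20 with siPARP2_A and 17 of 20 with siPARP2_B passed under every alternative. Over the 35 values of members named by the rule, 433 of 454 alternatives gave the same call, 21 lost it and 0 turned the direction. Among the other called members, NTHL1 with veliparib turned from -0.23 to 0.07 with the correction for GC content and length.

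Replicate numbers are shared by the groups of a table. Deviations of the libraries numbered 1 correlated between groups at -0.14 to 0.11, so the numbers do not show pairing. A replicate block gave the same counts as without it, 5, 17 and 16 for UPF1069, olaparib and veliparib against DMSO, and 15, 7, 20 and 20 for siPARP1_A, siPARP1_B, siPARP2_A and siPARP2_B against siNC. It gave 18 in place of 19 for UPF1069 against olaparib and for siPARP2_A against siPARP2_B. With 2 libraries a group, small differences were not detectable, and log2 fold changes had median standard errors of 0.062 (inhibitors) and 0.094 (siRNAs).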
